A study of Mus musculus with 6 samples.

Results

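The genes described here encode the enzymes that release fatty acids from stored triglyceride in adipocytes, together with the proteins that raise or lower their activity. The group is defined by gene symbol. It holds 7 of the 24421 gene symbols in the count tables: *Pnpla2*, *Pnpla3*, *Lipe*, *Mgll*, *Abhd5*, *Abhd6* and *G0s2*. All 7 had enough counts to be tested.

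3T3-L1 is an established mouse preadipocyte line (strain given as C57BL/6 in the labels) that becomes fat-storing in culture. Cells were differentiated from 2 days after confluency in DMEM with 10% CS, 870 nM insulin, 5 µM TZD, 1 µM Dex and 500 µM IBMX, and IBMX and Dex were left out from day 3 onwards. On day 7 they received 100 pfu/cell of an adenovirus carrying *LacZ* (AdLacZ, control) or a codon-optimized murine *Lmo3* (Ad*Lmo3*), and RNA was collected 72 h later from 3 separate infections per virus. Both groups therefore carried an adenovirus and had seen the TZD, a class of PPARγ ligands, and the libraries are repeated infections of a single cell line and not separate animals.

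The comparison asks how the mRNA levels of this pathway differ between adipocytes with and without LMO3. Totals on genes ran from 28035639 to 38332335 counts per library, and the 7 genes together took 0.280% to 0.285% of the counts in AdLacZ and 0.360% to 0.408% in Ad*Lmo3* libraries. No read was counted on *Lmo3* itself in any of the 6 libraries, so this gene could not be used to check the labels. The adipocyte identity of the cultures was visible in *Adipoq*, *Fabp4*, *Plin1* and *Cidec*, with group means of 1037 CPM or more (CPM, or counts per library scaled to a common depth, normalized by TMM). The other adipocyte markers *Cfd*, *Slc2a4*, *Retn* and *Lep* had means of 2428, 364, 85.1 and 29.8 CPM in AdLacZ. The fibroblast markers *Col3a1* and *Col1a1* had higher means, 11383 and 5105 CPM in AdLacZ. Of the macrophage and leukocyte markers, *Adgre1* and *Ptprc* had at most 2 counts in any library, and *Cd68* and *Lyz2* had means of 3.31 and 1.53 CPM in AdLacZ.

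Triglyceride is broken down in steps. ATGL, the product of *Pnpla2*, removes the first fatty acid, hormone-sensitive lipase, encoded by *Lipe*, cleaves the resulting diglyceride, and monoglyceride lipase, encoded by *Mgll*, frees the last fatty acid and glycerol. *Abhd5* encodes CGI-58, the coactivator of ATGL, and *G0s2* encodes its inhibitor. *Pnpla3* encodes a relative of ATGL found on lipid droplets, whose expression is known to follow feeding and insulin, and *Abhd6* encodes another hydrolase of monoglycerides.

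The genes lie on 6 chromosomes of GRCm38. *Pnpla2* (positions 141455198 to 141460743) and *Lipe* (25379527 to 25398710) are on chromosome 7, *Pnpla3* on chromosome 15 (84167837 to 84187236), *Mgll* on chromosome 6 (88724412 to 88828360), *Abhd5* on chromosome 9 (122351608 to 122381524), *Abhd6* on chromosome 14 (8002902 to 8056763) and *G0s2* on chromosome 1 (193272161 to 193273217). All are annotated as protein-coding.

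RefSeq promoter windows of GRCm38.p6, from 250 bases before to 50 bases after an annotated start, were found for all 7 genes, 10 windows in all. Those of the 3 genes that rose, *Pnpla2*, *Pnpla3* and *Lipe*, are printed below beside that of *Abhd5*, whose protein works with ATGL and whose mRNA change did not pass the test. Capitals mark a match, on either strand, to AGGTCA (the half-site of nuclear receptors such as PPARγ), to DR1 (AGGTCA repeated with any 1 base in between, which contains the half-site), to CCAAT, to CACGTG (an E-box) or to TATAAA.
Pnpla2, chr7:141454938-141455237, plus strand: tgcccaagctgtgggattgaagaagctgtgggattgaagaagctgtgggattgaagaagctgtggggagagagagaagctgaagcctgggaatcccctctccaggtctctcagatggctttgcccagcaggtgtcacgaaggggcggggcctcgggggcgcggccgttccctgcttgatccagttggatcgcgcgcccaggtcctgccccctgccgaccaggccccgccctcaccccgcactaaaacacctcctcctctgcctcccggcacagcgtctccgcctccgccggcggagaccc
Pnpla3, chr15:84167566-84167865, plus strand: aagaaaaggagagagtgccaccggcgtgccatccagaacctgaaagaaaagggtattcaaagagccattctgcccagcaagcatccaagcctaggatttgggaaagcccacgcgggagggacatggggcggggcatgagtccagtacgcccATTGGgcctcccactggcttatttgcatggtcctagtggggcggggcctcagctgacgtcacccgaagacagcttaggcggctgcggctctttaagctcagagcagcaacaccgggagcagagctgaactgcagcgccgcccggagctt
Lipe, chr7:25395938-25396237, minus strand: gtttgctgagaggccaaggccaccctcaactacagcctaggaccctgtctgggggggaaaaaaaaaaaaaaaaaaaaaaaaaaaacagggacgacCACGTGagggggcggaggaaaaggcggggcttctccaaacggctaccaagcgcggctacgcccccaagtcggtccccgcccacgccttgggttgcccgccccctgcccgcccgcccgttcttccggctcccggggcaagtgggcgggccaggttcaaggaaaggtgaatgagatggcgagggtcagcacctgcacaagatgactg
Abhd5, chr9:122351366-122351665, plus strand: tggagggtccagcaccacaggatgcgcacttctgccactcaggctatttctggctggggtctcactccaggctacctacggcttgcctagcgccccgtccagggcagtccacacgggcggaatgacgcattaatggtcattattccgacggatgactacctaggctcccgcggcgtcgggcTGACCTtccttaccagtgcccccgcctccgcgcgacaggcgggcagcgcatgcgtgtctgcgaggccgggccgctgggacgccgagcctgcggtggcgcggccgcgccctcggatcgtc

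None of the 5 motifs was found in the *Pnpla2* window. That of *Pnpla3* held CCAAT on the opposite strand with its leftmost base at position -99 from the start. That of *Lipe* held CACGTG at position -155, whereas a window at another *Lipe* start, which is not printed, held no match. These motifs were not limited to the genes that rose. Among the windows not printed, a window of *Mgll* held CACGTG at position -44 and a window of *Abhd6* held CCAAT at position -221. Another window of each of these genes and that of *G0s2* held no match. The half-site AGGTCA was present in the *Abhd5* window at position -69, read on the opposite strand, and in no window of the other 6 genes. Among all 32851 windows of this length, 16.3% held AGGTCA, 0.0396% held DR1, 37.4% held CCAAT, 7.15% held CACGTG and 13.6% held TATAAA. A match describes the letters of a short window and is no evidence of binding, and a missing match says nothing about the factor.

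Of the 7 genes, *Pnpla2*, *Pnpla3* and *Lipe* were induced in Ad*Lmo3* libraries, none was repressed, and the changes of *Mgll*, *G0s2*, *Abhd5* and *Abhd6* did not pass the test. These calls rest on edgeR's quasi-likelihood test across 12766 genes at an adjusted p-value under 0.05. Over all tested genes 2.71% were called higher and 1.57% lower, against 42.9% of these 7 called higher. The 7 were chosen with earlier results of these data known, so this share is a description. Scaling by library totals alone moved the balance over all genes from 346 higher and 201 lower to 266 higher of 767 called, and called 4 of the 7, *Abhd6* (lower) in addition. Without AdLacZ replicate 3, 1 of the 7 was called, *Pnpla3*. At an unadjusted p under 0.05, which 20.6% of all genes reached, 5 of the 7 were higher and 1, *Abhd6*, was lower. DESeq2 also called 5 higher and 1 lower, against 1110 of all 12766 tested genes called in either direction. The median log2 fold change of the 7 was 0.42, against 0.00 over all genes, and 6 of the 7 had a log2 fold change above 0, against 50.4% of all genes.

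*Pnpla2*, the gene of the first lipase in the chain, had 984, 919 and 916 CPM in AdLacZ replicates 1, 2 and 3, and 1326, 1383 and 1472 CPM in Ad*Lmo3* replicates 1, 2 and 3. The lowest Ad*Lmo3* library lay well above the highest AdLacZ library, and the libraries within a group were close to each other. The means were 939.6 ± 38.8 and 1394 ± 73.3 CPM (SD, n = 3 each), which is a log2 fold change of 0.57 with a standard error of 0.0759 and, in edgeR, an adjusted p of 0.00869. The 95% confidence interval of the log2 fold change ran from 0.39 to 0.74. Without AdLacZ replicate 3 the adjusted p was 0.0638, the highest over the alternatives, which reached down to 1.32e-11.

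*Lipe*, encoding hormone-sensitive lipase, had 1126, 1197 and 1219.97 CPM in AdLacZ and 1545, 1875 and 1925 CPM in Ad*Lmo3* replicates 1, 2 and 3. Again the groups did not overlap, with Ad*Lmo3* replicate 1 the lowest of its group. The means were 1181 ± 48.7 and 1782 ± 206 CPM (SD, n = 3 each), or 0.59 on the log2 scale (95% confidence interval 0.37 to 0.82, standard error 0.0992), with an edgeR adjusted p of 0.0179. The *Lipe* call was lost in 4 of the 6 fits that left out a library, against 1 of 6 for *Pnpla2*. Leaving out AdLacZ replicate 1, 2 or 3 gave adjusted p-values of 0.0579, 0.0572 and 0.0840, and leaving out Ad*Lmo3* replicate 2 gave 0.0872, out of a range over the alternatives from 1.72e-07 to 0.0872. The log2 fold change itself stayed between 0.53 and 0.69 when single libraries were left out. The kit, as named, does not mark strand, so that reads of a gene and its antisense partner cannot be told apart. In *Lipe* transcripts, 8.68% of the stretches of 75 bases are shared with the antisense gene 4732471J01Rik. That gene had 33 to 63 counts per library against 40081 to 69028 on *Lipe*. Reads assigned to several genes were left out, so these counts do not show how many reads fell on the shared stretches.

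*Pnpla3* showed the largest change of the 7. It had 55.7, 60.5 and 59.2 CPM in AdLacZ and 103, 147 and 137 CPM in Ad*Lmo3* replicates 1, 2 and 3. Every Ad*Lmo3* library was far above the AdLacZ libraries, and the spread was wider in the Ad*Lmo3* group with replicate 1 lower than the other two. The means were 58.5 ± 2.47 and 129 ± 23.3 CPM (SD, n = 3 each), a 2.21-fold difference or 1.14 on the log2 scale (95% confidence interval 0.85 to 1.43, standard error 0.126), with an edgeR adjusted p of 0.00396. The gene stayed under the threshold with every single library left out and in every other fit, with adjusted p-values from 4.68e-16 to 0.0366. Some 2.18% of its stretches of 75 bases are shared with the overlapping transcript Gm49513.

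*Mgll*, whose product completes lipolysis, had 109, 99.3 and 97.1 CPM in AdLacZ and 159, 129 and 119.8 CPM in Ad*Lmo3* replicates 1, 2 and 3. Here Ad*Lmo3* replicate 1 was the highest of its group, the reverse of its place in *Lipe* and *Pnpla3*. Ad*Lmo3* was higher by 0.42 on the log2 scale (95% confidence interval 0.16 to 0.67, standard error 0.109, edgeR adjusted p = 0.0764), with means of 102 ± 6.41 and 136 ± 20.5 CPM (SD, n = 3 each). This gene did not pass the threshold, although its groups did not overlap. DESeq2 and a fit without a filter on low counts placed it under the threshold, at adjusted p-values of 0.00596 and 0.0459 out of a range from 0.00596 to 0.259. Only 0.383% of its stretches of 75 bases are shared with the antisense gene Gm26588.

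**Figure D1:**
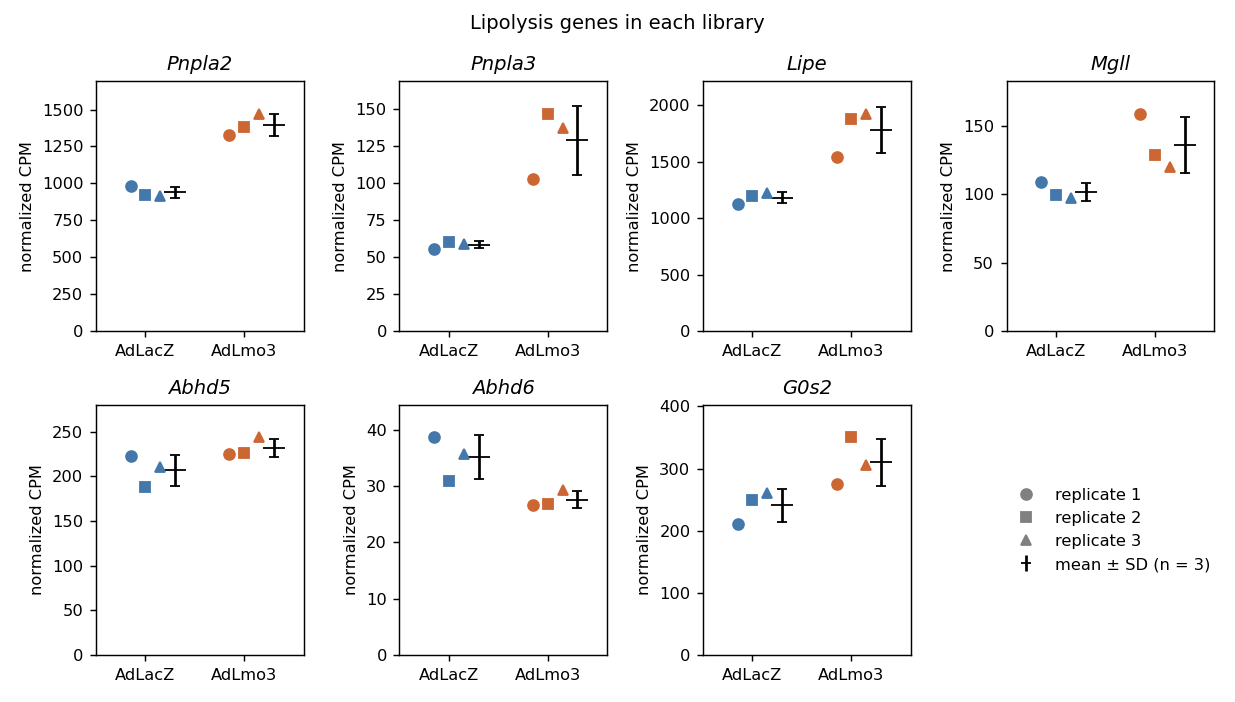
Normalized CPM (vertical axes, starting at 0) of the 7 lipolysis genes in each AdLacZ (blue) and Ad*Lmo3* (orange) library, with the mean ± SD of 3 libraries beside the points. No gene has overlapping groups, 6 being higher in Ad*Lmo3* and *Abhd6* lower.

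The mRNAs of the coactivator and the inhibitor of ATGL did not pass the test. *Abhd5*, the coactivator gene, had 222, 188 and 210.2 CPM in AdLacZ and 225, 227 and 244 CPM in Ad*Lmo3* replicates 1, 2 and 3. The Ad*Lmo3* libraries were higher by a narrow margin, AdLacZ replicate 1 being just below Ad*Lmo3* replicate 1. The means were 207 ± 17.3 and 232 ± 10.4 CPM (SD, n = 3 each), which differ by 0.16 on the log2 scale with a standard error of 0.0802 (edgeR adjusted p = 0.3001). Its 95% confidence interval, from -0.02 to 0.35, includes 0. The log2 fold change was 0.0998 without AdLacZ replicate 2 and 0.0888 with scaling by library totals alone. In *Abhd5*, 14.2% of the stretches of 75 bases occur in the antisense gene A730085K08Rik, which had at most 3 counts per library. As for *Lipe*, the count of the antisense gene does not show how many reads fell on the shared stretches.

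*G0s2*, the gene of the ATGL inhibitor, had 211, 249.5 and 261 CPM in AdLacZ and 275, 350.2 and 305 CPM in Ad*Lmo3* replicates 1, 2 and 3. The groups did not overlap, and AdLacZ replicate 3 came close to Ad*Lmo3* replicate 1. With means of 241 ± 26.0 and 310.3 ± 37.6 CPM (SD, n = 3 each), the difference was 0.37 on the log2 scale (95% confidence interval 0.11 to 0.62, standard error 0.112) and did not pass the threshold (adjusted p = 0.114 from edgeR). DESeq2 gave an adjusted p of 0.0209, the lowest over the alternatives, whose highest was 0.319.

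*Abhd6*, which encodes the other monoglyceride hydrolase, was the only one of the 7 genes with lower values in Ad*Lmo3* libraries. It had 38.7, 31.0 and 35.7 CPM in AdLacZ and 26.7, 26.9 and 29.3 CPM in Ad*Lmo3* replicates 1, 2 and 3. All 3 Ad*Lmo3* libraries were below the lowest AdLacZ library. On the log2 scale the change was -0.35 (95% confidence interval -0.56 to -0.13, standard error 0.0932, edgeR adjusted p = 0.0816), with means of 35.1 ± 3.87 and 27.6 ± 1.48 CPM (SD, n = 3 each). The gene was under the threshold in DESeq2 (0.0289) and with scaling by library totals alone (0.0418), and its adjusted p over the alternatives ran from 0.0289 to 0.245. Some 1.84% of its stretches of 75 bases occur in the annotated gene Gm1833.

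Non-overlapping groups were thus seen in all 7 genes, 6 higher and 1 lower. Over all tested genes the groups did not overlap in 26.5%, 13.3% being higher and 13.2% lower, so that this pattern alone is common in these libraries. The plot of fitted changes shows the 3 called genes with intervals above 0 and *Abhd5* as the one gene whose interval crosses 0.

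**Figure D2:**
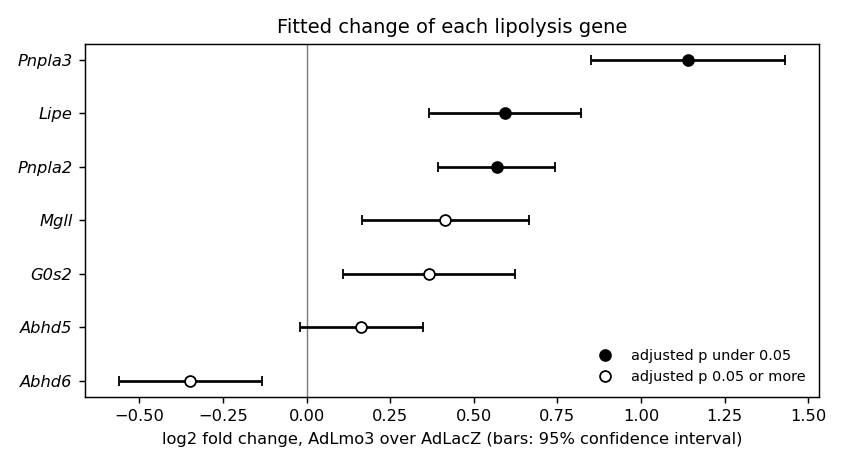
Log2 fold change (horizontal axis, Ad*Lmo3* over AdLacZ) of each lipolysis gene from the edgeR fit, with 95% confidence intervals. Filled points have an adjusted p-value under 0.05: *Pnpla3* at 1.14, *Lipe* at 0.59 and *Pnpla2* at 0.57.

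To compare levels between genes, normalized CPM were divided by the length of all annotated exons of the gene in kb. In AdLacZ libraries *Pnpla2* had the highest level per kb (311 ± 12.8 CPM per kb), followed by *G0s2* (276 ± 29.8) and *Lipe* (201 ± 8.27), SD over 3 libraries. On the same scale *Pnpla3* (37.8 ± 1.59), *Abhd5* (34.7 ± 2.90), *Mgll* (20.1 ± 1.26) and *Abhd6* (14.9 ± 1.64 CPM per kb) formed a lower tier. The ranges of *Pnpla3* and *Abhd5* overlapped, and those of the other neighbours did not. The mRNA of the inhibitor was thus nearer in level per kb to that of ATGL than the mRNA of the coactivator was.

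In Ad*Lmo3* libraries the order per kb was the same, with 462 ± 24.3 CPM per kb for *Pnpla2*, 356 ± 43.2 for *G0s2* and 303 ± 35.0 for *Lipe*. Below them came *Pnpla3* at 83.3 ± 15.1, *Abhd5* at 38.9 ± 1.74, *Mgll* at 26.8 ± 4.04 and *Abhd6* at 11.7 ± 0.625 CPM per kb. Here *Pnpla3* no longer overlapped with *Abhd5*, whereas the ranges of *G0s2* and *Lipe* did overlap. The order depends on the length used. Per kb of the longest transcript, which for *Lipe* has 3713 of the 5886 exon bases, *Lipe* stood at 318 ± 13.1 CPM per kb in AdLacZ and came before *G0s2*, and *Abhd5* at 65.5 ± 5.47 came before *Pnpla3* at 44.5 ± 1.88. On this length *Lipe* also came before *G0s2* in Ad*Lmo3* libraries, at 480 ± 55.5 CPM per kb. There *Pnpla3* at 98.3 ± 17.8 came before *Abhd5* at 73.4 ± 3.29, as it did per kb of all exons.

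**Figure D3:**
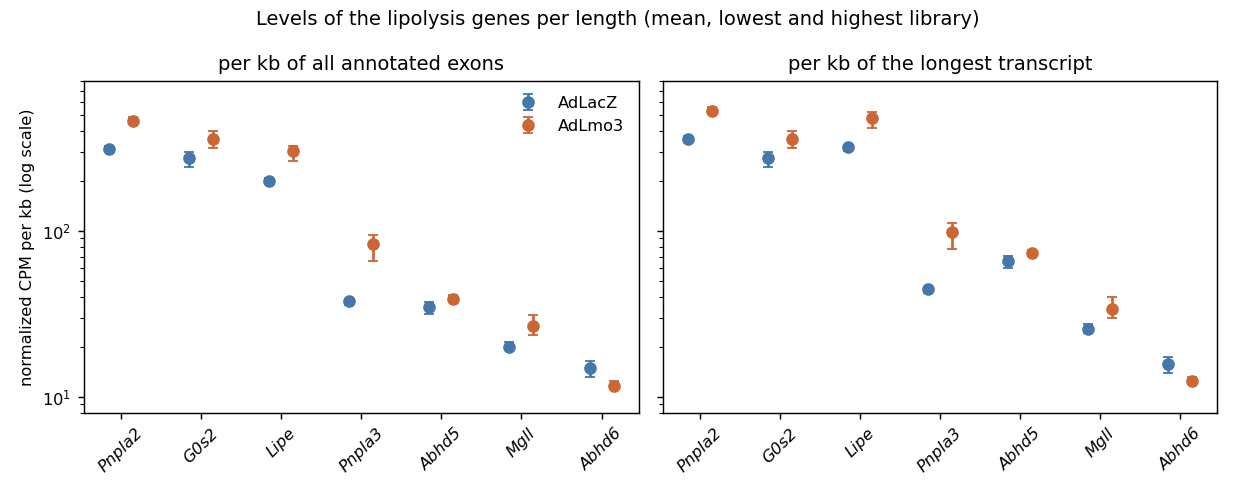
Normalized CPM per kb (vertical axis, log scale) of the 7 genes in AdLacZ (blue) and Ad*Lmo3* (orange), per kb of all annotated exons at the left and per kb of the longest transcript at the right; points are means and bars reach from the lowest to the highest of 3 libraries. *Pnpla2* has the highest and *Abhd6* the lowest mean in both panels. At the right the Ad*Lmo3* ranges of *Pnpla2* (505 to 561) and *Lipe* (416 to 518 CPM per kb) overlap.

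Ratios of counts within a library do not depend on how libraries are scaled, and 7 of them were compared between the groups by exact two-sided permutation tests of the log2 ratio. With 3 libraries against 3 no such test can give a p below 0.1, and no adjusted p-value over the 7 ratios was below 0.233. The counts on the coactivator mRNA over those on the ATGL mRNA, *Abhd5* to *Pnpla2*, had log2 ratios of -2.15, -2.29 and -2.12 in AdLacZ and of -2.56, -2.61 and -2.60 in Ad*Lmo3* replicates 1, 2 and 3. No protein was measured here. All Ad*Lmo3* libraries were lower, and the difference in log2 ratio was -0.40 (standard error 0.0532, exact permutation p = 0.1, the smallest possible), which leaves 75.7% of the AdLacZ ratio.

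*Pnpla3* to *Pnpla2*, the pair of related genes, had log2 ratios of -4.14, -3.93 and -3.95 in AdLacZ and -3.69, -3.23 and -3.42 in Ad*Lmo3* replicates 1, 2 and 3. The ratio was higher in every Ad*Lmo3* library, by 0.56 on the log2 scale (standard error 0.1495, exact permutation p = 0.1). *Abhd6* to *Mgll*, the hydrolases of monoglycerides, had -1.50, -1.68 and -1.44 in AdLacZ and -2.57, -2.26 and -2.03 in Ad*Lmo3* replicates 1, 2 and 3, a difference in log2 ratio of -0.75 (standard error 0.173, exact permutation p = 0.1). The CPM of *Abhd6* were lower and those of *Mgll* higher in every Ad*Lmo3* library, so this ratio had to separate. Its exact permutation p therefore adds nothing to the values of the single genes. These 3 ratios were the ones without overlap between the groups, and how often ratios of other genes separate was not tested.

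The other ratios overlapped. *G0s2* to *Pnpla2*, the mRNAs of the inhibitor and of ATGL, differed by -0.20 (standard error 0.158, exact permutation p = 0.2), with log2 ratios of -2.22, -1.88 and -1.81 in AdLacZ and -2.27, -1.98 and -2.27 in Ad*Lmo3*. *Abhd5* to *G0s2* differed by -0.20 (standard error 0.182, exact permutation p = 0.5), and *Mgll* to *Lipe* by -0.18 (standard error 0.238, exact permutation p = 0.5). *Lipe* to *Pnpla2*, the consecutive lipases, differed by 0.02 (standard error 0.0949, exact permutation p = 0.7), and the sign of this small difference changed when single libraries were left out, from -0.05 without AdLacZ replicate 1 to 0.08 without Ad*Lmo3* replicate 1. The sizes of the other 3 also rested on single libraries. *G0s2* to *Pnpla2* ranged from -0.33 without AdLacZ replicate 1 to -0.12 without AdLacZ replicate 3. *Abhd5* to *G0s2* was -0.06 without AdLacZ replicate 1 and -0.09 without Ad*Lmo3* replicate 2. *Mgll* to *Lipe* was -0.40 without Ad*Lmo3* replicate 1, and -0.10, -0.11 and -0.04 without AdLacZ replicate 1, Ad*Lmo3* replicate 2 and Ad*Lmo3* replicate 3.

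**Figure D4:**
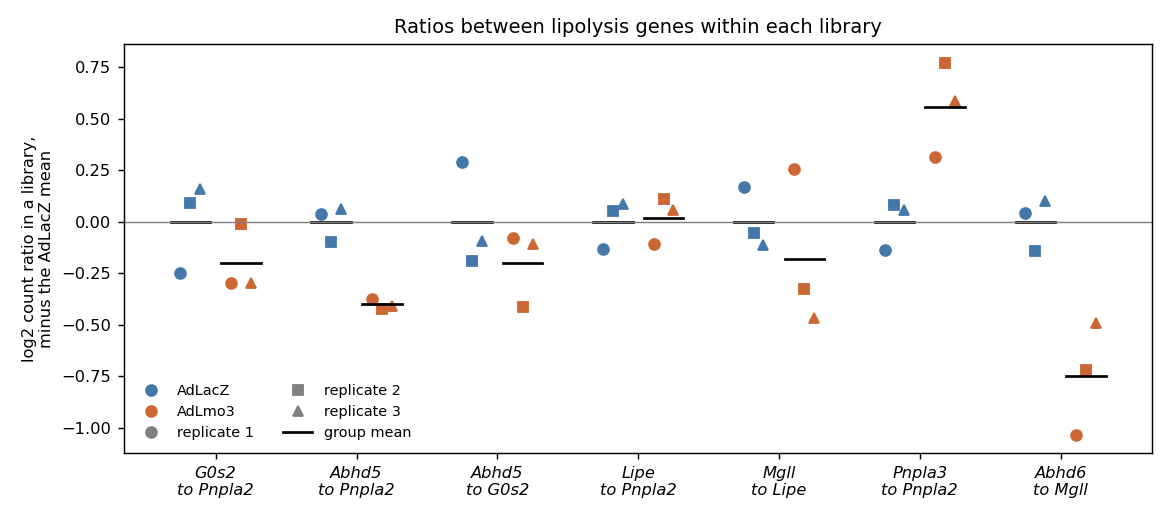
Log2 ratio of the counts of 2 genes within each library, less the AdLacZ mean of that ratio (vertical axis), for AdLacZ (blue) and Ad*Lmo3* (orange); black bars are group means. *Abhd5* to *Pnpla2* and *Abhd6* to *Mgll* are lower and *Pnpla3* to *Pnpla2* is higher in all Ad*Lmo3* libraries, and the other 4 ratios overlap.

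Over the 6 libraries, the genes whose log2 CPM followed *Pnpla2* most closely were *Sult1a1* and *Ces1d* (Pearson r 0.997 and 0.996). *Bambi* and *Plin1* followed *Lipe* (0.998 for both), *Bambi* and *Rdh11* followed *Pnpla3* (0.995 for both), and *Acat1* and 1810058I24Rik followed *Mgll* (0.994 and 0.989). *Srd5a1* and *Gprc5b* followed *G0s2* (0.994 for both), *Endod1* and *Hdac1* followed *Abhd5* (0.990 for both) and *Mlec* and 1600012H06Rik followed *Abhd6* (0.997 for both). Between 25 and 275 genes had an r above 0.95 with a given member, the fewest with *Mgll*. Among the 7, *Lipe* and *Pnpla3* were most alike (r 0.993), and *Mgll* was less like *Lipe* (0.604). These values describe 6 points that share libraries, depth and the difference between the groups.

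Beyond the 7, 97 tested genes were taken from lists of pathway genes. Of these, 14 rose and none fell at an adjusted p-value under 0.05 in edgeR, or 14.4% against 4.28% of all tested genes. The median log2 fold change of the 97 was 0.12. The lists were chosen with earlier results of these data known, so this share is a description and no test of the pathway. *Plin1*, *Cidec* and *Fabp4*, among the 14, are also in the list of adipocyte markers below. At an unadjusted p under 0.05, which 20.6% of all genes reached, 35 of the 97 were higher and 3 lower. With DESeq2, which called 1110 of 12766 genes, 28 were higher and 1 lower. Leaving out single libraries moved the number called from 14 to between 3 and 18. It was 3 without AdLacZ replicate 3, 5 without AdLacZ replicate 2, 5 without Ad*Lmo3* replicate 2, and 8 without AdLacZ replicate 1 or Ad*Lmo3* replicate 3.

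Of 21 tested relatives in the PNPLA and ABHD families, 2 rose and none fell, or 9.52% against 4.28% of all tested genes. The median log2 fold change was 0.04. DESeq2 and an unadjusted p under 0.05 each gave 4 higher and 1 lower, against 1110 of 12766 and 20.6% of all tested genes. *Abhd3* changed by 0.72 (adjusted p = 0.0191 from edgeR) and *Abhd1* by 0.52 (adjusted p = 0.0287), both from low levels of 7.26 ± 0.932 and 28.9 ± 3.71 CPM in AdLacZ (SD, n = 3). The relatives with the highest CPM that did not pass, *Pnpla8* and *Abhd16a*, had log2 fold changes of 0.13 (adjusted p = 0.419) and 0.25 (adjusted p = 0.104).

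Another list held 14 tested genes of hydrolases of neutral lipids and acylglycerols, with the amidase gene *Naaa* among them. Of these 14, 3 rose, or 21.4% against 4.28% of all tested genes. *Ces1d* and *Ces1f*, carboxylesterases of which the first is known as a triglyceride hydrolase, rose by 0.99 and 0.93 on the log2 scale, both at adjusted p = 0.00352 in edgeR. *Ces1d* went from 214 ± 12.5 to 427 ± 55.1 CPM (SD, n = 3 each). *Naaa*, an acid amidase of the lysosome, rose by 0.63 (adjusted p = 0.0316). *Lpl*, which acts on circulating triglyceride, and *Lipa*, the lysosomal acid lipase, had log2 fold changes of 0.23 (adjusted p = 0.294) and 0.02 (adjusted p = 0.949), and their groups overlapped. Reads of the *Ces1* genes, which lie in a family of close copies, may be split uncertainly between them.

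Among 11 tested genes of droplet proteins and other proteins listed as binding the lipases or their cofactors, 3 rose. This was 27.3% against 4.28% of all tested genes. *Plin1* encodes perilipin 1, which holds CGI-58 at the droplet in unstimulated cells, and it rose by 0.56 on the log2 scale (edgeR adjusted p = 0.0184), the means being 1037 ± 51.4 and 1529 ± 156 CPM (SD, n = 3 each). *Cidec*, which encodes a droplet fusion protein, and *Fabp4*, which encodes the fatty acid carrier of adipocytes, rose by 0.69 (adjusted p = 0.00352) and 0.62 (adjusted p = 0.0187). *Plin4* and *Plin2* had log2 fold changes of 0.45 (adjusted p = 0.117) and 0.09 (adjusted p = 0.484). *Fabp4* was also the 1 gene called among 5 tested genes for the exit of fatty acids and glycerol, or 20% against 4.28% of all tested genes. In that list *Cd36* and *Fabp5* had log2 fold changes of 0.10 (adjusted p = 0.794) and 0.31 (adjusted p = 0.0970).

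Of 38 tested genes of the hormonal control of lipolysis, 2 rose and none fell in edgeR. By these calls the share was 5.26%, near the 4.28% of all tested genes, and the median log2 fold change was 0.04. DESeq2 called 10 of the 38 higher and none lower, against 1110 of all 12766 tested genes called in either direction. At an unadjusted p under 0.05 in edgeR, which 20.6% of all genes reached, 13 of the 38 were higher and 2 lower. By these measures the list lay further above all genes. *Adrb3*, the β3-adrenergic receptor gene, rose by 1.39 on the log2 scale (edgeR adjusted p = 0.0150), with means of 45.4 ± 5.06 and 119 ± 39.3 CPM (SD, n = 3 each) and a wide spread in Ad*Lmo3* libraries. *Tshr*, the thyrotropin receptor gene, rose by 0.69 (adjusted p = 0.0306). *Gnas* and *Prkar1a*, the genes of the stimulatory G protein and of a regulatory subunit of protein kinase A, had log2 fold changes of -0.01 and -0.02 (adjusted p = 0.937 and 0.926) with overlapping groups.

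All 12 transcription factor genes known for acting on lipase genes were tested, and 4 rose, or 33.3% against 4.28% of all tested genes. *Cebpa* rose by 0.59 (adjusted p = 0.0111 from edgeR), *Pparg* by 0.48 (0.0316), *Nr1h3*, which encodes LXRα, by 0.39 (0.0405) and *Irf4* by 1.25 (0.0407), the last from only 0.632 ± 0.164 to 1.52 ± 0.169 CPM (SD, n = 3 each). *Nr3c1* and *Srebf1* had log2 fold changes of 0.24 (adjusted p = 0.131) and 0.21 (adjusted p = 0.414).

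Markers of mature adipocytes moved with the group. Of 8 such genes, 6 rose, or 75% against 4.28% of all tested genes. *Cidec*, *Fabp4* and *Plin1* are among the 6 and were counted above with the droplet list too. *Fabp4* was also counted with the genes for the exit of fatty acids and glycerol. The largest changes were those of *Retn*, *Adipoq* and *Cfd*, at log2 fold changes of 1.44, 1.05 and 0.81 (edgeR adjusted p = 0.00243, 0.00724 and 0.00780). The groups of *Slc2a4* and *Lep* overlapped (log2 fold changes 0.08 and 0.49). For the whole list the summed level was 10206 to 10639 CPM in AdLacZ and 15607 to 19299.5 CPM in Ad*Lmo3* libraries. The summed level of 10 preadipocyte and fibroblast markers was 16392 to 21079 CPM in AdLacZ and 16324 to 24687 CPM in Ad*Lmo3* libraries, which overlap. Of the 10, 8 had a log2 fold change above 0, against 50.4% of all genes, and none was called by edgeR. At an unadjusted p under 0.05 in edgeR, which 20.6% of all genes reached, 1 was higher and 0 lower. DESeq2 also called 1 higher and 0 lower, against 1110 of 12766 tested genes called in either direction. Of these markers *Col3a1* and *Col1a1* had the highest means, 11383 ± 1422 and 5105 ± 862 CPM in AdLacZ (SD, n = 3), and both overlapped between the groups. The 3 tested of 6 macrophage markers summed to 4.52 to 5.84 CPM in AdLacZ and 3.07 to 5.18 in Ad*Lmo3* libraries, and the 2 tested of 4 endothelial markers to 1.32 to 2.33 and 0.740 to 1.67 CPM. Of the brown adipocyte markers, *Ucp1* had at most 2 counts in a library, and the 2 tested of 4 summed to 40.1 to 44.1 CPM in AdLacZ and 42.1 to 46.5 in Ad*Lmo3* libraries. In these bulk libraries more adipocytes and more of an mRNA per adipocyte cannot be told apart, and the part of the adipocyte markers in the changes of *Pnpla2*, *Pnpla3* and *Lipe* was not tested.

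**Figure D5:**
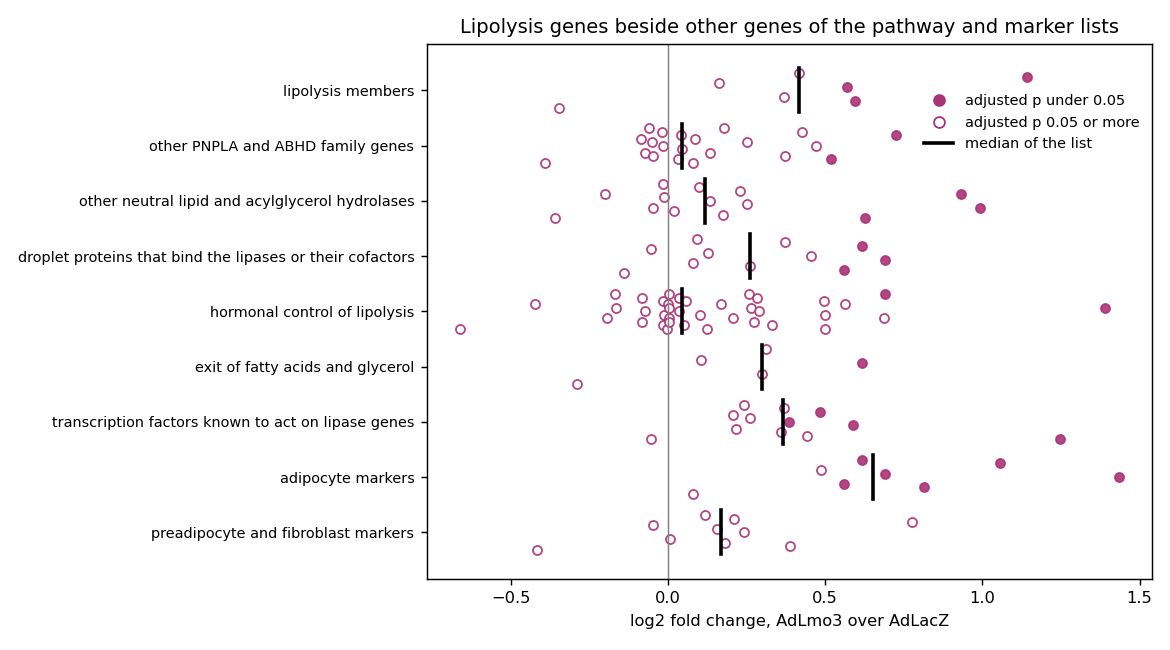
Log2 fold change (horizontal axis, Ad*Lmo3* over AdLacZ) of each tested gene in the lipolysis group, in the pathway lists and in the adipocyte and preadipocyte marker lists; filled points have an adjusted p-value under 0.05 and black bars are medians. The median is 0.42 for the 7 lipolysis genes, 0.65 for adipocyte markers and 0.17 for preadipocyte and fibroblast markers.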

How the data were processed

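RNA-Seq libraries of 75 bp single reads were made with a kit that, as named, does not mark strand, 3 for AdLacZ and 3 for Ad*Lmo3*. Per the labels, STAR 2.5.0b and mm10 (GRCm38) were used by the authors, who deposited unnormalized read counts per gene symbol, 1 table per library. The counting program, strand setting and annotation are not given in the sources used here. Reads assigned to no gene (7.15% to 8.94%) or to several (0.476% to 0.543%) were left out.

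From these counts, differences were tested with edgeR 4.0.16 under R 4.3.3 (filterByExpr, TMM, quasi-likelihood test, no block) and Benjamini-Hochberg adjustment over 12766 genes at 0.05, after a test on simulated data. CPM are TMM-normalized, and standard errors were computed from the log2 fold change and the F statistic. A count of 0 allows up to 3 counts, or 0.0783 to 0.107 CPM, which covers counting error only. Chi-square per degree of freedom between replicates was 22.9 or more, so every library counted as 1 replicate. The submitters name 3 separate infections per virus, and the p-values measure the spread between them. DESeq2 1.42.0, limma 3.58.1 (voom), other scalings and filters, the replicate number as a block and leaving out each library were alternatives.

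Exon lengths and shared stretches came from GENCODE M21. Genes named were the 7 members, per list up to 4 called genes with the largest changes and 2 others with the highest level, and for each member the 2 closest by Pearson r (log2 of CPM + 0.1). For older symbols RefSeq synonyms were used. Members, lists and this rule were chosen with earlier results of these data known. Figures were drawn with matplotlib 3.10.9.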

Additional observations from a re-analysis of the deposited data

How the results depend on the processing

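The directions of all 7 lipolysis genes held in every alternative fit and with every library left out. The number of them called was 3, and 6 with DESeq2, where *Mgll* (log2 fold change 0.42), *G0s2* (0.37) and *Abhd6* (-0.35) passed too. *Mgll* also passed without a filter on low counts (0.42), and *Abhd6* with scaling by library totals (-0.42), where the median of all genes was -0.07. DESeq2 called 1110 genes in all against 547, and 29 of the 97 pathway genes against 14, and without the filter 22 pathway genes were called. The causes of these differences were not tested.

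The replicate numbers are shared between the groups, but same-numbered libraries correlated in their deviations by only 0.0345, 0.176 and 0.176 across genes, so the numbers were not taken as pairs. Fitting replicate number as a block gave 498 called genes, and among the 7 genes the log2 fold change of *Mgll* (0.41) passed, with an adjusted p of 0.0365 from edgeR; no other call among the 7 changed.

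With single libraries left out, 1 to 3 of the 7 genes, 3 to 18 of the pathway genes and 77 to 501 of all genes were called, the fewest in each case without AdLacZ replicate 3. Fits with 2 libraries in a group have fewer samples. Log2 fold changes ranged from 0.53 to 0.61 for *Pnpla2*, 1.04 to 1.29 for *Pnpla3*, 0.53 to 0.69 for *Lipe*, 0.29 to 0.498 for *Mgll*, 0.0998 to 0.22 for *Abhd5*, 0.27 to 0.45 for *G0s2* and -0.43 to -0.27 for *Abhd6*. Differences in log2 ratio ranged from -0.33 to -0.12 for *G0s2* to *Pnpla2*, -0.45 to -0.37 for *Abhd5* to *Pnpla2*, -0.30 to -0.06 for *Abhd5* to *G0s2*, -0.40 to -0.04 for *Mgll* to *Lipe*, 0.45 to 0.68 for *Pnpla3* to *Pnpla2* and -0.88 to -0.61 for *Abhd6* to *Mgll*. Per kb of the longest transcript, 3 of the 7 genes kept their rank in AdLacZ and 5 in Ad*Lmo3* libraries.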

Other observations

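Genes of the insulin branch that restrains lipolysis were not named by the rule and were picked after their values were seen. *Pde3b* encodes the phosphodiesterase through which insulin lowers cAMP, and *Abhd15* encodes a protein known to stabilise it. *Pde3b* had 234, 294 and 318 CPM in AdLacZ and 356, 424 and 418 CPM in Ad*Lmo3* replicates 1, 2 and 3, and *Abhd15* had 90.3, 74.8 and 85.5 against 96.5, 117 and 123 CPM. Every Ad*Lmo3* library was above every AdLacZ library for both genes, as in 13.3% of all tested genes. Their log2 fold changes of 0.499 and 0.43 (standard errors 0.123 and 0.107) did not pass the threshold, with adjusted p-values of 0.0646 and 0.0688 from edgeR.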
